A study of Mus musculus with 67 samples.

Results

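The genes described here are the WNT ligands, their receptors and the proteins that carry or limit the signal inside the cell, read in wild-type mouse embryos around implantation. They were chosen by symbol from the deposited expression table: every gene whose symbol begins with Wnt or Fzd followed by a digit, plus Lrp5, Lrp6, Porcn, Wls, Ctnnb1, Axin1, Axin2, Tcf7, Tcf7l1, Tcf7l2, Rspo1 to Rspo4, Lgr4, Lgr5, Znrf3 and Rnf43. This gave 48 of 25006 genes. The rule names symbols and uses no measured value. One of the 48, Fzd10os, is an antisense RNA that matches the spelling and is not a receptor.

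RNA was measured by Smart-seq2, a full-length cDNA method for very small samples, in pools of about 10 to 100 cells whose cDNA was amplified for 17 cycles. All animals were wild type, and the series names a mouse line with an EGFP reporter under the Pdgfra promoter, used to help separate lineages. The 67 libraries form 23 groups, 19 of 3 libraries, 3 of 2 and 1 of 4, although the protocol speaks of 3 biological replicates in each. At E3.5 the groups were inner cell mass (ICM) and trophectoderm (TE). At E4.5 they were TE, epiblast (Epi) and primitive endoderm (PrE). At E4.75 Epi and PrE were joined by trophoblast giant cells (TGC) and extra-embryonic ectoderm (ExE). Epi and PrE were sampled again at E5.0 and E5.25, with a further set of Epi libraries at each of these stages labelled in vivo. Whether the Epi and PrE libraries without that label came from culture or from the uterus is not given in the sources used here. At E5.5 one series was labelled in vitro (Epi, visceral endoderm or VE, ExE and the 4 TGC libraries). The other was labelled in vivo and held Epi (2 libraries), ExE (2), an endoderm group labelled VE_Epi (2) and one labelled VE_ExE (3). The in vitro embryos had been grown in 3D culture and recovered from Matrigel, and the in vivo embryos were dissected from the decidua.

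WNT proteins are secreted lipid-modified ligands. Porcn, an acyltransferase of the endoplasmic reticulum, adds the lipid, and Wls carries the finished ligand to the cell surface. Frizzled receptors (Fzd) with the co-receptors Lrp5 and Lrp6 bind the ligand and stop the degradation of beta-catenin (Ctnnb1), for which Axin1 and Axin2 are scaffolds. Beta-catenin then acts through the TCF factors Tcf7, Tcf7l1 and Tcf7l2, of which Tcf7l1 acts mainly as a repressor. Znrf3 and Rnf43 are ubiquitin ligases that clear Frizzled receptors from the membrane, and R-spondins (Rspo) bound to Lgr receptors hold these ligases in check. In the mouse embryo Wnt3 is required for gastrulation, and the visceral endoderm is a source of secreted WNT antagonists.

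Values are TPM, transcript abundances scaled to library size, which are corrected for transcript length, so levels can be compared between genes. Of the 48 members, 35 reached at least 1 TPM in at least 3 libraries and entered the tests, and 23 reached a mean of at least 5 TPM in at least 1 group. The 23 comprised 5 of 19 ligands (Wnt3, Wnt3a, Wnt6, Wnt7b and Wnt11), both processing genes, 6 of 10 receptors (Fzd2 to Fzd7), Lrp6, 2 of 4 R-spondins (Rspo1 and Rspo3), Lgr4, Znrf3, Axin1, Ctnnb1 and all 3 TCF genes. The other 14 ligands had highest group means of 0.205 to 3.32 TPM and the other 4 receptors 1.58 to 4.34 TPM. Lgr5 (0.327 TPM), Rnf43 (1.05 TPM), Axin2 (4.10 TPM), Lrp5 (3.26 TPM), the other 2 R-spondins (0.162 to 1.15 TPM) and Fzd10os (0.464 TPM) also stayed below 5 TPM in every group mean. Fold changes are differences of mean log2(TPM + 1) ± standard error, a scale that understates changes of low genes. A difference counts as called where limma, adjusted over all 15567 genes tested, gave p under 0.05 and the difference was at least 1 on the log2 scale.

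Stretches before the start sites of 4 members are shown because the comparisons that follow turn on them. Wnt11, Wls and Fzd5 were called higher in endoderm than in epiblast at 4 or all 5 of the stages compared, and Wnt6 was called lower in endoderm at E4.75, E5.0 and E5.5 and higher in ExE than in Epi at E5.5. Each is the 250 bases upstream of a RefSeq start in GRCm38.p6, read 5′ to 3′ on the gene's strand, and capitals mark a match to the TCF/LEF motif CTTTGAT or its reverse complement ATCAAAG.
Wnt11, chr7:98834862-98835111, plus strand: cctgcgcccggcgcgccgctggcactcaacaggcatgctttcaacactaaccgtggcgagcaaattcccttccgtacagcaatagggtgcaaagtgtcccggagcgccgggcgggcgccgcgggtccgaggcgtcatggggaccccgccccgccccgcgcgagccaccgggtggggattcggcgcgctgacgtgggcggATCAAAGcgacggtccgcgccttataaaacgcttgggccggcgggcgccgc
Wls, chr3:159839400-159839649, plus strand: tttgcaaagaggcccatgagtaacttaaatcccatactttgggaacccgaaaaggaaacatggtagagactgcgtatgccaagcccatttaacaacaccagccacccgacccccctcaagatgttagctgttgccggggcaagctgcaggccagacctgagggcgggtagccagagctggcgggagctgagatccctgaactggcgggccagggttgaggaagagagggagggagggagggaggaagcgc
Fzd5, chr1:64737751-64738000, minus strand: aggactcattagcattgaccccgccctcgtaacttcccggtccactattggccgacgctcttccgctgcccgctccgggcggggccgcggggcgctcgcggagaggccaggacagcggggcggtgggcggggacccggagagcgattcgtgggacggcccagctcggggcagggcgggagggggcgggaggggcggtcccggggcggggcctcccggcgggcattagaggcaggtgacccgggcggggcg
Wnt6, chr1:74771642-74771891, plus strand: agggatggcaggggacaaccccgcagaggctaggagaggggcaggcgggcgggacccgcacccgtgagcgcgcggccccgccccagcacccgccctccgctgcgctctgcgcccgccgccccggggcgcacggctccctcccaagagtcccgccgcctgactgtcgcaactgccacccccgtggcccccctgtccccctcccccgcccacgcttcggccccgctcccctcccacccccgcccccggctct
Of the 4 windows printed, that of Wnt11 held a match, beginning 51 bases before the start. A second Wnt11 start window, at chr7:98838595-98838844, is not printed and held no match. Both strands were searched, and 1053 of 32851 windows of this length in the RefSeq table (3.21%) held CTTTGAT. The other motif searched, AGATAA or TTATCT, the core bound by GATA factors, was in none of these 4 windows and in 3281 of all windows (9.99%). Of the 48 members 31 had an entry, with 38 windows among them. The TCF/LEF motif was in 2 of the 38 (Wnt11 and Wnt5b) and the GATA motif in 3 (Fzd1, Tcf7l2 and Wnt8b). Tcf7l2, also called higher in endoderm at every stage compared, is not printed. Its window at chr19:55895071-55895320 held TTATCT, beginning 187 bases before the start, and that at chr19:55741560-55741809 held neither motif. The 4 printed windows were rich in G and C, from 58.0% in Wls to 70.8% in Wnt11, 76.4% in Fzd5 and 79.6% in Wnt6.

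On mm10 the genes named most often lie apart from each other. Wnt7b is at chr15:85535437-85582473, Wnt6 at chr1:74771892-74785322, Wnt11 at chr7:98835112-98855195 and Wnt3 at chr11:103774150-103817957. Porcn is on the X chromosome (8193848 to 8206525), Wls at chr3:159839672-159938664, Fzd2 at chr11:102604396-102608058, Fzd5 at chr1:64730558-64737751 and Rspo3 at chr10:29452416-29535867. Tcf7l1 is at chr6:72626378-72789254 and Tcf7l2 at chr19:55741820-55933654. Wnt7b, Wnt5b, Tcf7l1 and Ctnnb1 overlap other annotated genes, and strand use in counting is not given in the sources used here, so reads of Tcf7l1 and Gm15401 or of Ctnnb1 and its antisense neighbours may be shared.

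The libraries held 8423 to 12644 genes at 1 TPM or more. Within groups the correlation of log2 values across genes had a median of 0.988, and its lowest value, 0.891, was in the VE_ExE group. The first Epi library of E4.5 stood apart: all 48 members were above 0 in it, against 17 and 18 in the other 2. Rn45s, a ribosomal RNA gene, took 15% to 25% of all TPM in the E4.5 Epi and PrE libraries and 8.32% to 11.2% in the in vivo Epi E5.0 libraries, against 0.375% to 1.2% in Epi E5.0. Epiblast markers summed over 8 genes came to 1108 to 1261 TPM in Epi E5.0 in vivo and 2265 to 2616 in Epi E5.0. Markers of the labelled lineage were present in every group. Trophoblast markers were also present in Epi libraries: their summed level over 9 genes was 1522 to 1648 TPM in Epi E4.75, 994 to 1167 in Epi E5.0 and 737 to 824 in Epi E5.25, against 751 to 880 in vivo at E5.0, 319 to 478 in vivo at E5.25 and 3954 to 4407 in ExE E4.75. Endoderm markers summed over 10 genes reached 788 to 814 TPM in ExE E4.75 and 885 to 1051 in cultured ExE, and 11.4 to 23.5 in ExE in vivo. TPM keeps no read depth, and in pooled cells fewer cells of a type and less RNA per cell cannot be told apart.

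**Figure D1:**
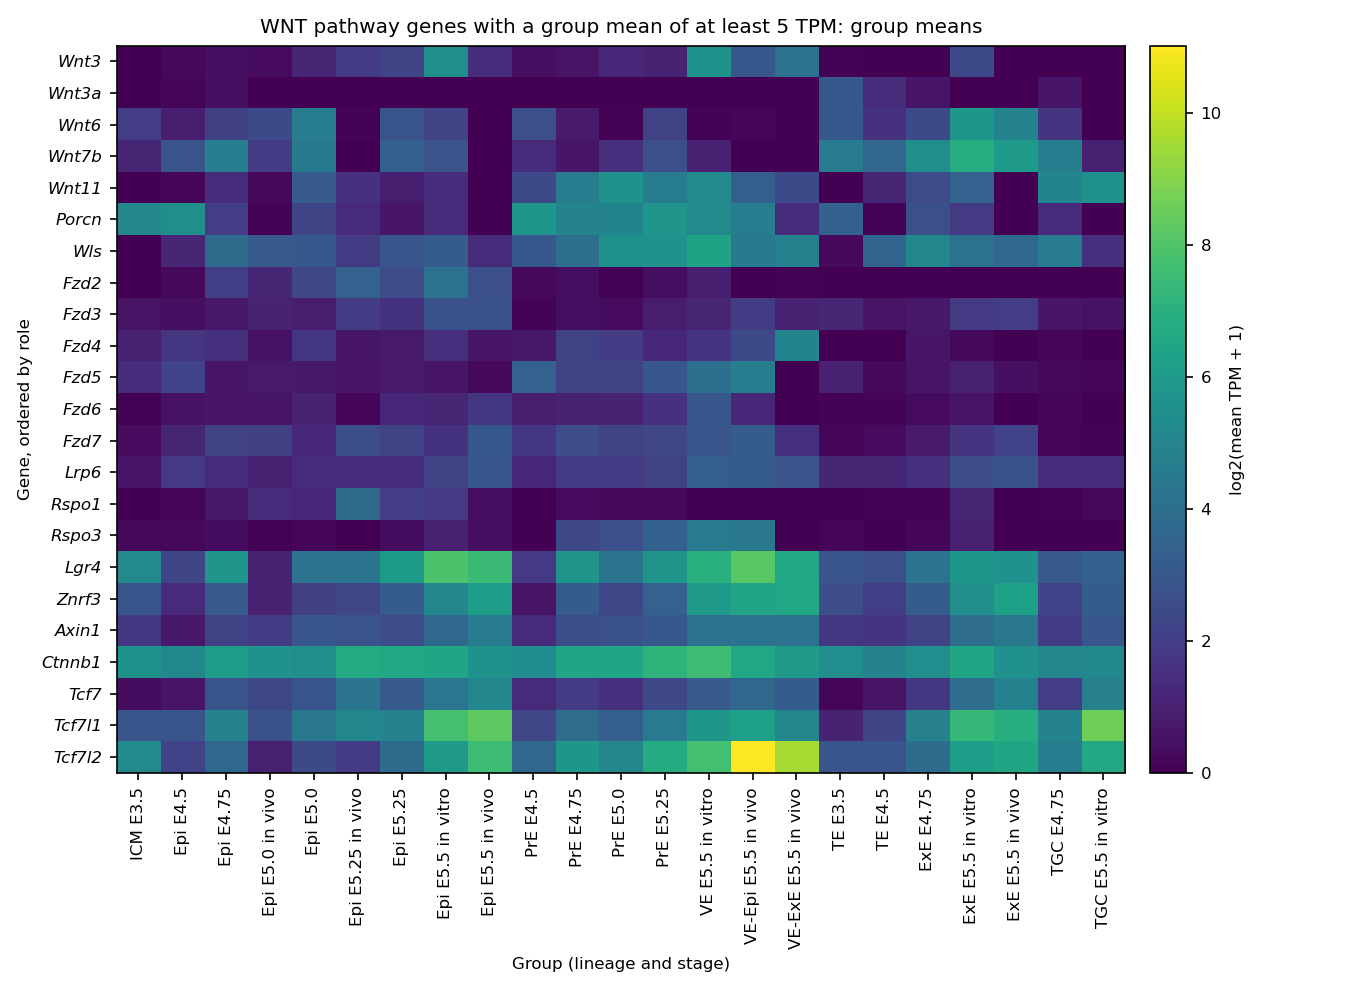
Heatmap of log2(mean TPM + 1) for the 23 members with a group mean of at least 5 TPM (rows, by role) in the 23 groups (columns, by lineage). Wnt7b and Wnt6 are highest in cultured ExE, Wnt11 in endoderm and giant cells, and Tcf7l2 in the VE_Epi group, where its mean is 2075 TPM.

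The ligand with the largest share differed between lineages. Wnt7b led in TE, in ExE and in Epi E4.5, E4.75 and E5.25, and made up 61.7% of the summed ligand level of 182 TPM in cultured ExE, which ran from 160.8 to 218.8 TPM over its libraries. Wnt11 led in PrE from E4.75 to E5.25, in VE_Epi and in both giant cell groups, with 95.7% of the sum in cultured TGC. At E5.5 Wnt3 led in both Epi groups, cultured VE and VE_ExE, with 69.5% in cultured Epi, 54.8% in cultured VE and 70.2% in VE_ExE. These are shares of group means. Wnt3 was uneven in VE_ExE (mean 16.9 TPM, standard deviation 17.8) and in Epi E5.5 in vivo (1.73 and 2.35). The lowest summed level was 3.94 TPM, in Epi E5.5 in vivo. The leading receptor was Fzd2 in cultured Epi (47.9% of the receptor sum), Fzd5 in cultured VE (42.5%) and VE_Epi (54.5%), and Fzd4 in VE_ExE (89.3%). In cultured TGC all 10 receptors together came to 0.660 TPM.

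Wnt7b, a ligand of the trophoblast in later placental development, was the ligand with the highest group mean. It was at 20.8, 17.2 and 27.2 TPM in TE E3.5, 9.16, 11.8 and 13.0 in TE E4.5, 41.6, 44.3 and 41.8 in ExE E4.75, 145, 90.3 and 101 in cultured ExE and 41.6 and 78.7 in ExE in vivo. In giant cells it was at 26.1, 24.2 and 26.1 TPM at E4.75 and at 1.31, 1.11, 0.297 and 1.13 at E5.5. ExE was thus the highest lineage, and the E5.5 giant cells lay below every ExE library. In Epi it was uneven: 14.2, 0 and 3.71 TPM at E4.5, 30.3, 32.1 and 16.6 at E4.75, 24.6, 15.3 and 22.1 at E5.0 and 8.73, 14.4 and 5.90 at E5.25. The in vivo Epi libraries held 1.07, 1.88 and 5.41 TPM at E5.0 and 0.0820, 0 and 0 at E5.25. At both stages the in vivo libraries lay below all libraries without that label, a difference that was not tested. The trophoblast genes Elf5 and Hand1, transcription factors of ExE and giant cells, had means of 95.1 and 101 TPM in Epi E5.0 and of 30.6 and 17.1 TPM in its in vivo counterpart, and their part in the Wnt7b level was not tested.

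**Figure D2:**
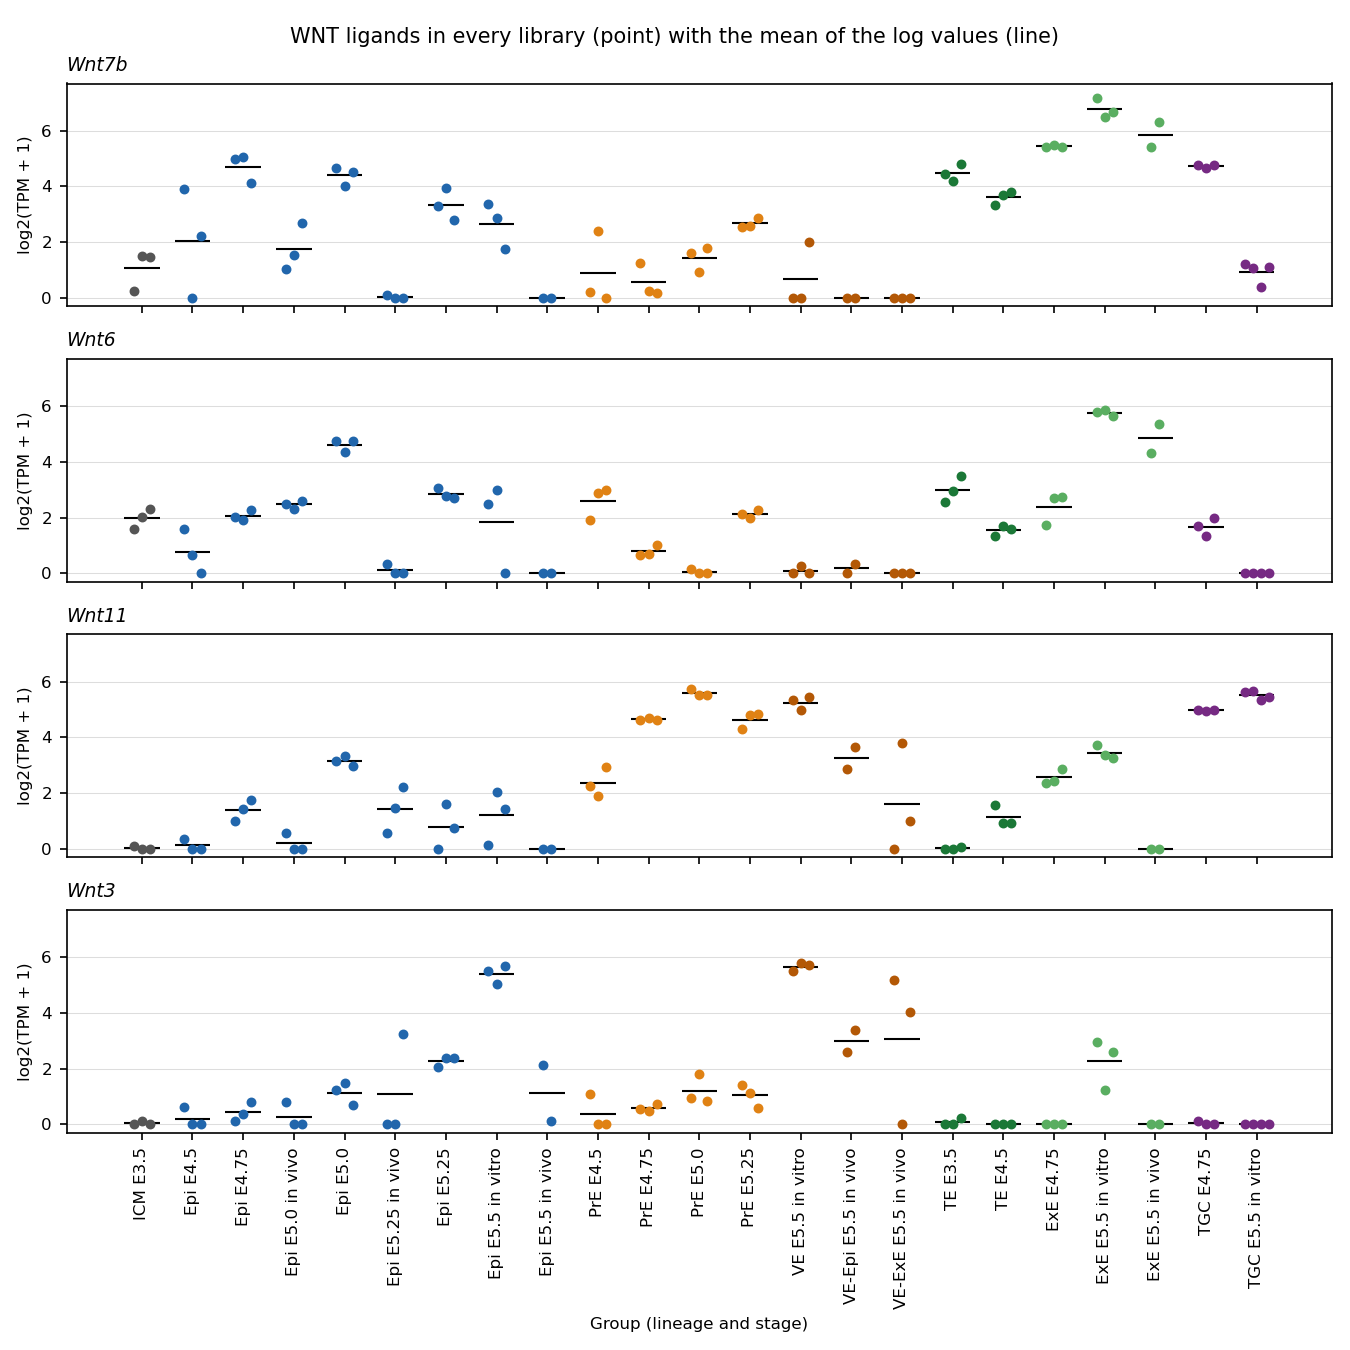
TPM of Wnt7b, Wnt6, Wnt11 and Wnt3 in every library (dots, log2(TPM + 1) axis) by group, with the mean of the log values as a line and colours for lineage. Wnt7b and Wnt6 share their peak in cultured ExE, Wnt11 is high in PrE, VE and TGC, and Wnt3 is at 32.0 to 54.0 TPM in all libraries of cultured Epi and cultured VE.

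At the blastocyst stage, TE and ICM differed in ligand, processing and effector genes. Of the 35 members tested 2 were higher in TE and 4 lower, and 13.5% of all genes tested were called in this comparison, 5.92% higher and 7.62% lower. The median member differed by -0.01 and the median gene by -0.06. Wnt7b was higher in TE, with 0.173, 1.84 and 1.75 TPM in ICM and a log2 difference of 3.42 ± 0.56 (adjusted p = 3.6e-06). Wnt3a, a canonical ligand, was at 7.79, 6.89 and 6.63 TPM in TE and listed at 0 in all 3 ICM libraries. Outside the 2 TE groups its highest library held 0.808 TPM.

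Tcf7l1, Tcf7l2, Lgr4 and Porcn were lower in TE. Tcf7l2 was at 39.9, 38.9 and 30.7 TPM in ICM and 5.13, 6.93 and 8.35 in TE, a log2 difference of -2.28 ± 0.31 (adjusted p = 6.4e-08). Lgr4, the R-spondin receptor, was at 35.1, 37.5 and 33.5 and 5.46, 7.60 and 6.39 TPM, a difference of -2.29 ± 0.46 (adjusted p = 9.5e-05). Neither gene's libraries overlapped between the groups. Tcf7l1 differed by -1.84 ± 0.37 (adjusted p = 1.1e-04) and Porcn by -1.71 ± 0.50 (adjusted p = 0.0087), the latter from 36.7, 31.8 and 32.9 TPM to 9.68, 9.70 and 9.46. The Porcn call was lost with a pseudocount of 0.1 TPM. Of the wider pathway, Kremen2, a co-receptor of the DKK antagonists, was higher in TE (means of 9.78 against 0.578 TPM) and the secreted antagonist Sfrp1 lower (0.917 against 16.1 TPM), 1 of 12 inhibitors tested in each direction. Of 11 genes listed as WNT response genes 2 were higher, Cdx2 and Cdx1, which are also trophectoderm transcription factors, and 0 of 12 cytoplasmic components were called.

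Between E3.5 and E4.5 Wls rose in the trophectoderm and Porcn and Wnt3a fell. In this comparison 21.6% of all genes were called, 3.25% higher and 18.3% lower, with a median gene at -0.26. Of the members 2 rose and 3 fell, and under quantile and median-ratio scaling, which each moved the median gene by 0.26, the splits were 3 and 2 and 3 and 3. Wls rose from 0.395, 0.142 and 0.0794 to 12.2, 11.3 and 10.2 TPM, by 3.35 ± 0.47 (adjusted p = 8.4e-08). Porcn fell from 9.68, 9.70 and 9.46 to 0, 0 and 0.242 TPM, a log2 difference of -3.30 ± 0.50 (adjusted p = 3.8e-07). Wnt3a fell to 1.56, 1.22 and 2.07 TPM, by a log2 difference of -1.64 ± 0.14 (adjusted p = 2.8e-14), and Wnt6 from 4.93, 6.74 and 10.2 to 1.55, 2.25 and 2.01 TPM, a difference of -1.46 ± 0.40 (adjusted p = 0.0036). These 4 genes had no overlap between stages. The Wnt6 call was lost with a pseudocount of 0.1 TPM and under quantile normalization (-0.84, adjusted p = 0.11). Tcf7l1 rose by 1.25 ± 0.37 (adjusted p = 0.007), which became 1.06 (adjusted p = 0.053) without the second TE E3.5 library. The Wnt7b difference was -0.87 ± 0.56 (adjusted p = 0.28) and was not called. Of the wider lists 2 of 12 inhibitors fell, Dkk1 (0.168 against 7.12 TPM) and Kremen2, and 5 of 12 cytoplasmic components fell, led by Btrc (14.9 against 74.1 TPM), the recognition subunit of the ligase that degrades beta-catenin.

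**Figure D3:**
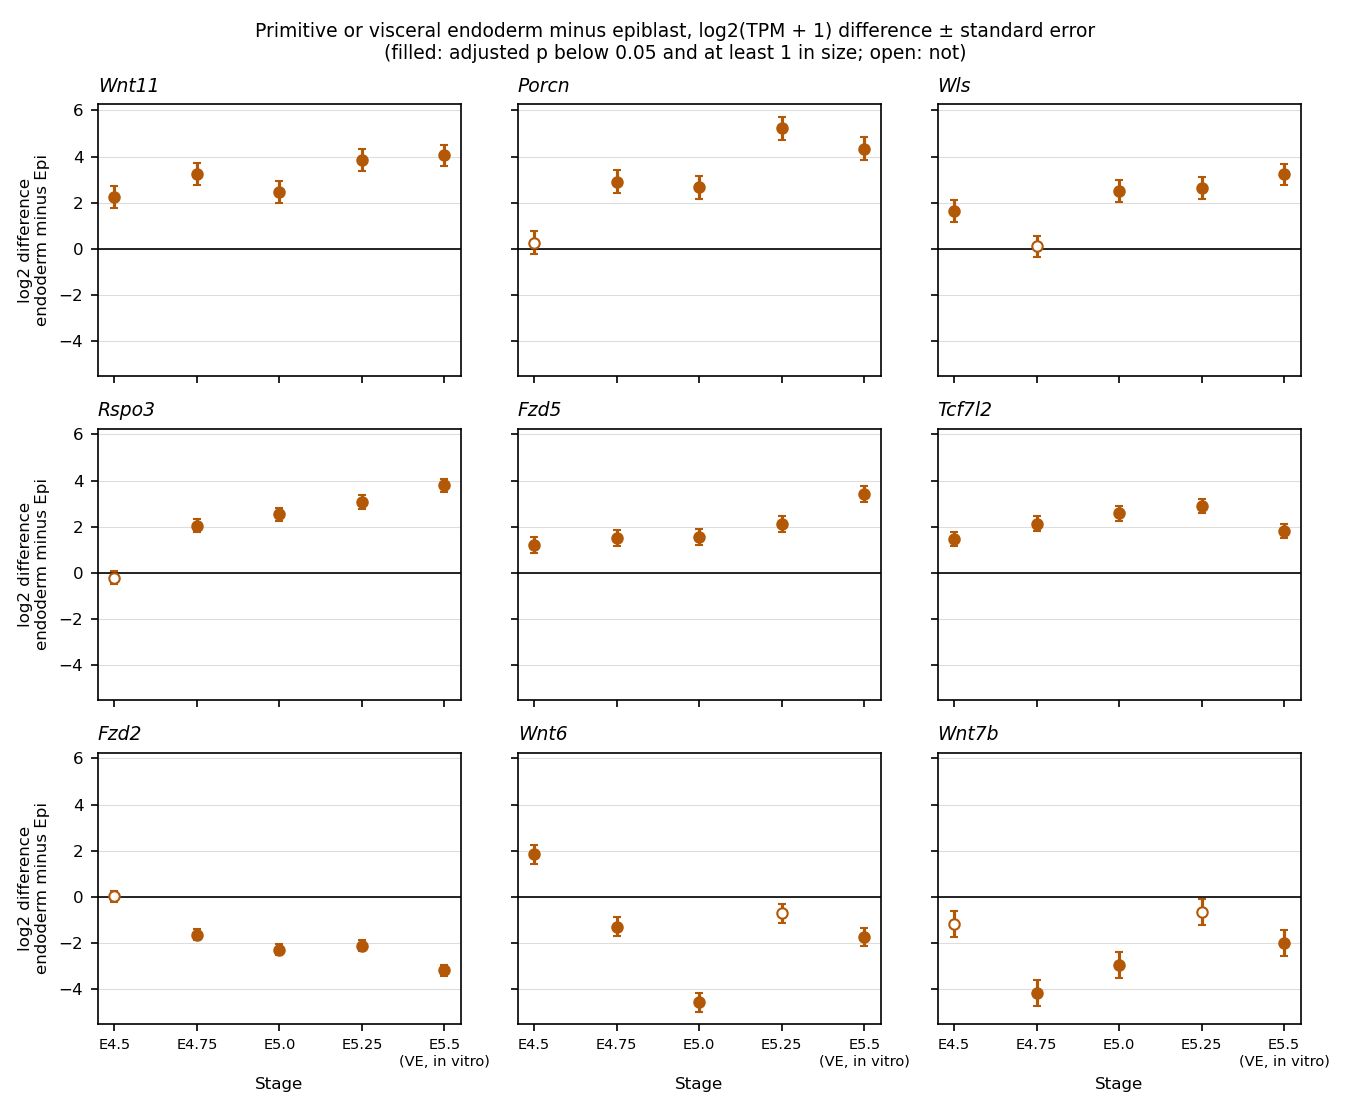
Log2 difference ± standard error between endoderm and epiblast for 9 members from E4.5 to E5.25 (PrE minus Epi) and at E5.5 (cultured VE minus cultured Epi). Filled points were called and open points were not; Wnt11, Tcf7l2 and Fzd5 are filled and above 0 at every stage.

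Endoderm and epiblast were compared at 5 stages. Wnt11, Fzd5 and Tcf7l2 were called higher in endoderm at all 5 stages, Porcn and Rspo3 at the last 4, and Wls at all but E4.75, while Fzd2 was called lower at the last 4. Of the 35 members tested, 9 were called at E4.5 (5 higher, 4 lower), 9 at E4.75 (5 and 4), 12 at E5.0 (7 and 5), 9 at E5.25 (6 and 3) and 16 at E5.5 (10 and 6). Over all genes tested, 28.6% were called at E4.5 (11.7% higher and 16.9% lower), 17% at E4.75 (8.69% and 8.31%), 24.5% at E5.0 (11.7% and 12.8%), 21.1% at E5.25 (9.94% and 11.2%) and 28.6% at E5.5 (17.3% and 11.3%). Quantile normalization moved the median gene by 0.19 at E4.5 and left 5 members higher and 0 lower there, and it gave 7 and 2 at E5.25. A fit of the E4.5 Epi and PrE libraries alone called 1 member, Wnt11. Of the 4 members lower in PrE at E4.5, Fzd4 (-1.13) was lost without the second (-0.79, adjusted p = 0.21) or the third Epi library or the first or second PrE library, and Axin2 (-1.13) without the first (-0.64, adjusted p = 0.32) or the third Epi library or the second or the third PrE library. Fzd10 was lost under quantile normalization and with array weights. At E4.75 Wnt5b was lost without the third Epi library (-1.24, adjusted p = 0.092), and at E5.25 Wnt10a, listed at 0 in PrE, without any library but the second Epi library (-1.03 to -0.92, adjusted p = 0.068 to 0.11). The member medians were -0.10, 0.10, 0.05, 0 and 0.02, beside all-gene medians of -0.20, -0.08, -0.07, -0.10 and 0.

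Among the ligands, Wnt11, which acts largely outside the beta-catenin branch, was called higher in endoderm at each stage. In PrE it was at 3.76, 2.72 and 6.68 TPM at E4.5, 23.5, 25.1 and 23.7 at E4.75, 52.0, 45.5 and 45.2 at E5.0 and 18.8, 26.7 and 27.4 at E5.25, and in cultured VE at 39.2, 30.4 and 42.3. The Epi libraries held 1.01, 1.66 and 2.36 TPM at E4.75, 7.96, 8.99 and 6.86 at E5.0, 0, 2.02 and 0.678 at E5.25 and 0.0877, 3.10 and 1.72 at E5.5. No PrE or VE library overlapped with Epi of its stage. The differences were 2.24 ± 0.47 (adjusted p = 1.2e-04) at E4.5, 3.26 ± 0.47 (adjusted p = 2.2e-07) at E4.75, 2.45 ± 0.47 (adjusted p = 3.4e-05) at E5.0, 3.86 ± 0.47 (adjusted p = 2.6e-09) at E5.25 and 4.05 ± 0.47 (adjusted p = 5.1e-10) at E5.5, and each kept its call under every alternative and with each library left out.

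Wnt6, a ligand of the canonical branch, was called in both directions. It was higher in PrE at E4.5, at 2.82, 6.42 and 6.90 TPM against 2.02, 0.595 and 0, by 1.85 ± 0.40 (adjusted p = 1.8e-04). At E5.0 it was at 0.111, 0 and 0 TPM in PrE and 25.9, 19.5 and 26.1 in Epi, a difference of -4.57 ± 0.40 (adjusted p = 7.0e-14) with no overlap. At E4.75 the difference of -1.29 ± 0.40 (adjusted p = 0.012) became -1.19 (adjusted p = 0.052) without the third Epi E4.75 library. At E5.25 it was at 3.43, 2.97 and 3.85 TPM in PrE and 7.41, 5.88 and 5.55 in Epi, and the difference of -0.72 ± 0.40 (adjusted p = 0.19) was not called. At E5.5 it was lower in cultured VE by -1.74 ± 0.40 (adjusted p = 3.7e-04). The Epi libraries with high Wnt6 at E5.0 were those whose trophoblast markers summed to 994 to 1167 TPM, and the in vivo Epi E5.0 libraries, where the same markers summed to 751 to 880 TPM, held 4.66, 3.96 and 5.09 TPM of Wnt6. Epi E4.75 and ExE E4.75, where the sums of these markers were higher, had Wnt6 means of 3.23 and 4.49 TPM. The part of those markers was not tested.

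Wnt7b was lower in endoderm at E4.75, where PrE held 1.40, 0.179 and 0.130 TPM, by -4.16 ± 0.56 (adjusted p = 4.7e-08), and at E5.0, where it held 2.07, 0.896 and 2.48, by -2.97 ± 0.56 (adjusted p = 2.6e-05). At E5.25 PrE was at 4.88, 5.05 and 6.25 TPM, and the difference of -0.67 ± 0.56 (adjusted p = 0.42) was not called. At E5.5 the called difference of -1.99 ± 0.56 (adjusted p = 0.0037) rested on groups that overlapped, since cultured VE held 0, 0 and 3.03 TPM and cultured Epi 9.38, 6.23 and 2.34. Wnt6 overlapped there too. Of 9 trophoblast markers, 0 were higher and 4 lower in endoderm at E4.75, and 1 and 3 at E5.0. At E5.25 4 were higher and 2 lower, and at E5.5 4 and 1. The part of these markers in the Wnt7b differences was not tested.

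Of the genes that prepare ligands for secretion, Porcn was called higher in endoderm from E4.75 on and Wls at all stages but E4.75. At E4.75 the Wls means were 14.9 TPM in PrE and 13.8 in Epi. Porcn was at 33.1, 30.3 and 24.1 TPM in PrE E4.75 against 2.57, 3.85 and 2.72 in Epi, and at 57.6, 40.3 and 58.9 against 0, 0 and 1.78 at E5.25. At E5.5 cultured VE held 32.9, 33.6 and 38.2 TPM and cultured Epi 4.46, 0 and 0. The groups did not overlap, and the differences were 2.90 ± 0.50 (adjusted p = 6.6e-06), 5.22 ± 0.50 (adjusted p = 1.5e-12) and 4.35 ± 0.50 (adjusted p = 2.7e-10), with 2.67 ± 0.50 (adjusted p = 1.8e-05) at E5.0. At E4.5 both lineages were high, PrE at 55.9, 31.8 and 76.1 TPM and Epi at 38.5, 57.9 and 34.3, and the gene was not called. Wls was at 38.1, 51.6 and 45.6 TPM in PrE E5.0 against 7.67, 7.36 and 6.19, and at 70.7, 86.4 and 87.7 in cultured VE against 5.16, 10.8 and 8.34 in cultured Epi. These are differences of 2.51 ± 0.47 (adjusted p = 2.1e-05) and 3.22 ± 0.47 (adjusted p = 1.3e-07), and 2.63 ± 0.47 (adjusted p = 1.1e-05) at E5.25. The E4.5 call for Wls rested on single libraries: 1.63 became 0.84 (adjusted p = 0.17) without the third PrE library and 1.24 (adjusted p = 0.055) without the third Epi library.

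Receptors split by lineage. Fzd5, a receptor called higher in endoderm at each stage, was at 3.72, 3.78 and 3.15 TPM in PrE E4.75, 4.29, 3.52 and 3.74 in PrE E5.0, 8.80, 5.83 and 5.40 in PrE E5.25 and 15.4, 14.8 and 15.2 in cultured VE. It stayed between 0.261 and 1.07 TPM in the Epi libraries of these stages that entered the comparisons. The differences ran from 1.52 ± 0.35 (adjusted p = 5.6e-04) at E4.75 to 3.40 ± 0.35 (adjusted p = 9.5e-12) at E5.5. At E4.5 its difference of 1.22 became 0.66 (adjusted p = 0.15) without the third PrE library and 0.63 (adjusted p = 0.15) without the second Epi library. Fzd2 showed the reverse pattern, with 2.82, 3.18 and 3.5 TPM in Epi E4.75, 4.71, 3.20 and 4.39 in Epi E5.0, 6.61, 3.87 and 4.06 in Epi E5.25 and 13.9, 17.8 and 16.6 in cultured Epi. In endoderm it was at most 1.24 TPM, and the difference went from -1.64 ± 0.24 (adjusted p = 1.7e-07) at E4.75 to -3.18 ± 0.24 (adjusted p = 1.8e-16) at E5.5. Fzd2 was also read in the in vivo Epi libraries, at 10.5, 6.65 and 13.0 TPM at E5.25.

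At E5.5 further receptors differed. Fzd6 was higher in cultured VE (10.5, 5.67 and 4.80 TPM against 0, 2.17 and 1.55 in Epi) by 1.93 ± 0.43 (adjusted p = 2.3e-04), and Fzd7 by 1.37 ± 0.34 (adjusted p = 9.4e-04). Fzd3 was lower, by -1.61 ± 0.34 (adjusted p = 1.3e-04). Lrp6, a co-receptor, was higher by 1.12 ± 0.39 (adjusted p = 0.019), which became 1.02 (adjusted p = 0.068) without the first Epi library and 1.04 (adjusted p = 0.063) without the first VE library.

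The R-spondins were divided between the lineages. Rspo3 was listed at 0 in PrE E4.5, then stood at 3.84, 4.22 and 4.71 TPM at E4.75, 5.77, 4.04 and 6.83 at E5.0, 9.18, 10.2 and 9.98 at E5.25 and 26.7, 19.9 and 21.8 in cultured VE. In Epi of E4.75 to E5.25 it was at most 0.609 TPM and in cultured Epi at 2.85, 0.272 and 0. The difference was 2.05 ± 0.29 (adjusted p = 1.2e-07) at E4.75, 2.53 ± 0.29 (adjusted p = 3.1e-10) at E5.0, 3.07 ± 0.29 (adjusted p = 1.1e-12) at E5.25 and 3.80 ± 0.29 (adjusted p = 4.9e-16) at E5.5. Rspo1 was lower in PrE at E5.25, with 1.21, 3.27 and 4.62 TPM in Epi against 0, 0 and 0.509 in PrE, a difference of -1.71 ± 0.42 (adjusted p = 0.0012). It was highest in the in vivo Epi E5.25 libraries, at 11.5, 6.25 and 21.8 TPM. In cultured VE it was listed at 0, and the E5.5 call became -0.89 (adjusted p = 0.12) without the third Epi library.

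Of the TCF genes, Tcf7l2 was higher in endoderm and Tcf7l1 lower at some stages. Tcf7l2 was at 10.2, 13.2 and 11.0 TPM in PrE and 4.30, 4.38 and 2.24 in Epi at E4.5, at 65.8, 50.0 and 53.2 and 16.6, 9.57 and 10.7 at E4.75, and at 105, 107 and 114 and 12.7, 16.6 and 12.0 at E5.25. In culture at E5.5 VE held 217, 196 and 211 TPM and Epi 80.7, 46.4 and 54.0. The groups did not overlap at any of these stages, and the differences were 1.46 ± 0.31 (adjusted p = 1.6e-04), 2.14 ± 0.31 (adjusted p = 2.7e-07), 2.90 ± 0.31 (adjusted p = 6.8e-11) and 1.80 ± 0.31 (adjusted p = 4.6e-06), with 2.57 ± 0.31 (adjusted p = 1.7e-09) at E5.0. Tcf7l1 was lower in VE at E5.5, at 52.5, 56.1 and 57.8 TPM against 207, 231 and 213, by -1.95 ± 0.37 (adjusted p = 2.2e-05). Its calls at E4.5 (-1.07) and E5.0 (-1.06) rested on single libraries. The E4.5 difference became -0.19 (adjusted p = 0.69) without the third PrE library, -0.84 (adjusted p = 0.11) without the second Epi library and -0.94 (adjusted p = 0.072) without the third. The E5.0 difference became -0.88 (adjusted p = 0.11) without the second PrE library and -0.97 (adjusted p = 0.074) without the first Epi library. Ctnnb1 was higher by 1.13 ± 0.21 (adjusted p = 2.5e-05) at E5.0 and 1.11 ± 0.21 (adjusted p = 3.0e-05) at E5.5. The E5.0 value was 0.93 without the second Epi library, and the E5.5 value 0.94 under median-ratio scaling.

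Some secreted antagonists were higher in endoderm and others lower. Of 12 inhibitors tested, 2 were higher and 2 lower at E4.5, 4 and 2 at E4.75, 4 and 1 at E5.0, 5 and 1 at E5.25, and 6 and 2 at E5.5. Dkk1, which blocks the Lrp co-receptors, had means of 75.4 against 0.170 TPM at E4.5, 194 against 12.7 at E4.75, 111 against 1.42 at E5.0 and 142 against 0.0425 at E5.25, and was listed at 0 in cultured Epi, with 74.8 TPM in VE. Cer1, an antagonist of WNT, BMP and Nodal, had means of 23.3 TPM in PrE E4.75, 67.5 in PrE E5.0 and 61.6 in PrE E5.25, and at most 0.408 TPM in Epi of these stages. Sfrp2, a Frizzled-related antagonist, was lower, with means of 0.0440 against 9.56 TPM at E5.0 and 1.64 against 33.1 at E5.5.

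Nuclear partners and listed response genes showed a mixed picture. Lef1, the remaining member of the TCF/LEF family, was lower in endoderm at each stage, with means of 0.0159 against 11.0 TPM at E4.5, 12.1 against 87.2 at E4.75 and 1.48 against 30.5 at E5.5, and was listed at 0 in PrE E5.0 and E5.25, where Epi held 35.3 and 29.2 TPM. Of 11 response genes, 0 were higher and 2 lower at E4.5, 2 and 4 at E4.75, 1 and 5 at E5.0, 1 and 4 at E5.25, and 2 and 5 at E5.5. Those that were lower at all 5 stages included Ccnd1 (means of 2.79 against 82.5 TPM at E5.25) and Myc (14.8 against 125), a cyclin and a transcription factor with many regulators besides WNT. Sp5, a direct target of beta-catenin, was higher from E4.75 on, with means of 5.96 against 0.0425 TPM at E4.75 and 34.9 against 1.36 at E5.5. Of 12 non-canonical genes, 6 were higher and 2 lower in VE at E5.5, led by the glypicans Gpc4 (means of 678 against 11.4 TPM) and Gpc3, cell-surface proteoglycans that bind WNTs among other ligands.

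Within the epiblast, 2 steps were compared. From E4.5 to E4.75, 14 of the 35 members tested rose and 2 fell, with 24.6% of all genes called, 16% higher and 8.62% lower. The median member rose by 0.39 and the median gene by 0.13. Quantile and median-ratio scaling moved the median gene by -0.16 and -0.13, and the splits were then 9 and 3 and 11 and 3. Lgr4 rose from 7.87, 0.833 and 2.96 to 57.6, 48.8 and 49.6 TPM, by 3.72 ± 0.46 (adjusted p = 2.1e-09). Wls rose to 13.3, 15.8 and 12.3 TPM, by 2.93 ± 0.47 (adjusted p = 1.2e-06), and Wnt7b by 2.66 ± 0.56 (adjusted p = 1.4e-04). Tcf7 rose by 2.25 ± 0.55 (adjusted p = 0.001), Tcf7l1 by 2.03 ± 0.37 (adjusted p = 1.3e-05), Znrf3 by 2.00 ± 0.32 (adjusted p = 9.9e-07) and Fzd2 by 1.86 ± 0.24 (adjusted p = 5.3e-09). Porcn fell from 38.5, 57.9 and 34.3 to 2.57, 3.85 and 2.72 TPM, a log2 difference of -3.44 ± 0.50 (adjusted p = 1.3e-07) with no overlap, and Fzd5 by a log2 difference of -1.34 ± 0.35 (adjusted p = 0.0017). Of the 16 calls, those of Wnt5b, Wnt6, Wnt11, Fzd7 and Ctnnb1 were lost when some single libraries were left out. For Wnt6 the difference became 0.94 (adjusted p = 0.095) without the third Epi E4.5 library. For Ctnnb1 it became 0.67 without the second Epi E4.5 library and 0.98 without the second Epi E4.75 library. The other 3 had 3 or 4 such libraries each, among them the third of both stages. Without the third Epi E4.75 library Wnt5b was at 1.00 (adjusted p = 0.17), Wnt11 at 1.09 (adjusted p = 0.13) and Fzd7 at 0.95 (adjusted p = 0.058), and without the third Epi E4.5 library at 1.09, 1.21 and 0.79 (adjusted p = 0.12, 0.08 and 0.1). The Epi E4.75 libraries also carried trophoblast markers, with Elf5 at a mean of 81.8 TPM and Hand1 at 99.8 TPM. Of 9 trophoblast markers 5 were higher at E4.75 and 1 lower. Of 10 endoderm markers 8 were higher and 0 lower, with a list median of 1.64. The part of both sets of markers in these differences was not tested.

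From E4.75 to cultured E5.5 epiblast, Wnt3, Tcf7l1 and Lgr4 were among the members that rose. Stage and culture cannot be told apart here, and Epi E5.5 in vivo held 3.39 and 0.0735 TPM of Wnt3. Of the members 9 rose and 1 fell, with 22.3% of all genes called, 11.1% higher and 11.2% lower, and medians of 0.38 for members and 0 for all genes. Wnt3 went from 0.0957, 0.305 and 0.753 to 44.1, 32.0 and 50.5 TPM, a rise of 4.97 ± 0.64 (adjusted p = 9.7e-09). Tcf7l1 went from 31.4, 25.6 and 27.7 to 207, 231 and 213 TPM, a rise of 2.90 ± 0.37 (adjusted p = 7.1e-09), and Lgr4 to 239.6, 177 and 305 TPM, a rise of 2.16 ± 0.46 (adjusted p = 1.5e-04). No library of E5.5 overlapped with E4.75 for these 3 genes. Tcf7l2 rose by 2.21 ± 0.31 (adjusted p = 1.0e-07), Fzd2 by 2.04 ± 0.24 (adjusted p = 6.1e-10), Fzd3 by 2.04 ± 0.34 (adjusted p = 3.4e-06), Znrf3 by 1.93 ± 0.32 (adjusted p = 2.3e-06) and Axin1 by 1.53 ± 0.37 (adjusted p = 9.6e-04). Wnt7b fell, by a log2 difference of -2.06 ± 0.56 (adjusted p = 0.0033), and that call was lost with a pseudocount of 0.1 TPM. In the same comparison 7 of 9 trophoblast markers and 9 of 10 endoderm markers were lower and 0 higher. The trophoblast sum was 1522 to 1648 TPM at E4.75 and 326 to 412 in cultured Epi, where Cdx2 and Tead4 were at 0. The endoderm sum was 230.0 to 253 and 12.6 to 18.5 TPM, with Sox17 and Pdgfra at 0 in cultured Epi, and their part in these differences was not tested. The rise of Tcf7 (1.46) missed the threshold in 5 of the 6 fits with a library left out, all but that without the second Epi E4.75 library, at adjusted p-values of 0.0501 to 0.12. Of the listed response genes 5 of 11 rose and 1 fell. Sp8 went to a mean of 23.9 TPM from 0.678 and T, the mesoderm factor brachyury, to 6.37 from 0.0671, while Cdx1 was listed at 0 in cultured Epi. Of 12 cytoplasmic components 6 rose and 0 fell, among them Dvl3 (means of 48.9 against 7.04 TPM), which passes the signal on from Frizzled.

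Wnt7b was higher in ExE than in Epi at E5.5, in culture and in vivo, and was not called at E4.75; the change between the stages was not tested. At E4.75, 0 members were higher in ExE and 4 lower by limma, with 9 at an unadjusted p under 0.05, and 8.81% of all genes were called, 2.72% higher and 6.1% lower. The Wnt7b difference of 0.73 ± 0.56 (adjusted p = 0.55) was not called, with a confidence interval of -0.40 to 1.86. Fzd2 was listed at 0 in ExE, and Fzd7 was lower by -1.34 ± 0.34 (adjusted p = 0.0038). Wnt5b and Lgr4 were also called. The Wnt5b call was lost without the first or the third library of either group, with values of -1.48 to -1.25 (adjusted p = 0.072 to 0.15). The Lgr4 call was lost without the first Epi or the second or the third ExE library, with values of -1.49 to -1.46 (adjusted p = 0.057 to 0.064). Quantile normalization gave 2 higher and 3 lower. All 10 endoderm markers were higher in these ExE libraries, at a sum of 788 to 814 TPM against 230.0 to 253 in Epi E4.75, and their part in these differences was not tested. Of 9 trophoblast markers 4 were higher in ExE and 0 lower, against 8 and 0 at E5.5 in culture and in vivo. The Epi E4.75 libraries carried these trophoblast markers at the sum given above, and their part in the Wnt7b difference was not tested.

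In culture at E5.5, 4 members were higher in ExE and 3 lower, with 20.8% of all genes called, 12.1% higher and 8.67% lower. Wnt7b was higher by 4.14 ± 0.56 (adjusted p = 4.3e-08). Wnt6 was at 54.5, 57.9 and 49.0 TPM in ExE and 4.67, 7.01 and 0 in Epi, a difference of 3.94 ± 0.40 (adjusted p = 1.4e-11). Wnt11 was at 12.1, 9.26 and 8.66 TPM and was higher by 2.25 ± 0.47 (adjusted p = 1.7e-04). The endoderm markers present in these ExE libraries, 10 of 10 at a mean of 1 TPM or more, stand beside that Wnt11 level, and their part in it was not tested. Wnt3 was lower, at 6.79, 1.34 and 5.0 TPM in ExE, by -3.15 ± 0.64 (adjusted p = 9.9e-05), as were Fzd2, by -4.08 ± 0.24 (adjusted p = 3.4e-20), and Lgr4, by -2.05 ± 0.46 (adjusted p = 3.4e-04). Fzd1 was higher by 1.18 ± 0.24 (adjusted p = 1.1e-04), a call lost with a pseudocount of 0.1 TPM and under median-ratio scaling.

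In vivo at E5.5, 4 members were higher in ExE and 6 lower, again with 20.8% of all genes called, 11.5% higher and 9.26% lower. Wnt7b and Wnt6 were listed at 0 in both in vivo Epi libraries, and ExE held 41.6 and 78.7 TPM of Wnt7b and 18.9 and 40.5 of Wnt6. Both genes were called. Fzd1 was listed at 0 in Epi and Fzd2 in ExE, and both were called. The Wls difference of 2.48 became 1.59 (adjusted p = 0.085) without the first Epi library and 1.85 (adjusted p = 0.053) without the second ExE library. The Lgr4 difference of -1.94 became -1.80 (adjusted p = 0.057) without the second Epi library. The Fzd6 call was lost without either ExE library (-1.39, adjusted p = 0.13 and 0.14). The calls of Fzd6, Fzd8, Tcf7l1 and Tcf7l2 were likewise lost without the second Epi library, where they stood at -0.32, -0.94, -1.40 and -1.05. Those of Tcf7l1 and Tcf7l2 were lost without any of the 4 libraries. In both settings Lef1 and Ccnd1 were lower in ExE, with Lef1 means of 0.0166 against 30.5 TPM in culture and 2.32 against 114 in vivo. Of 12 inhibitors 1 was higher and 2 lower in culture, and 0 were higher and 2 lower in vivo.

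Giant cells held Wnt11 at both stages. In culture at E5.5 they had less Wnt7b, Wnt6 and Wls than ExE, while Tcf7l1 had its highest group mean in them. At E4.75 TGC and ExE differed in 1 member, with 4.36% of all genes called, 2.12% higher and 2.24% lower. Wnt11 was at 30.9, 29.9 and 31.1 TPM in TGC and 4.17, 4.45 and 6.33 in ExE, a difference of 2.42 ± 0.47 (adjusted p = 2.1e-04), which was not called with a pseudocount of 0.1 TPM (2.62, adjusted p = 0.1). Endoderm markers summed to 161 to 170.0 TPM in these TGC libraries against 788 to 814 in ExE. The Wnt7b difference was -0.72 ± 0.56 (adjusted p = 0.72). The median gene was at -0.15, which quantile and median-ratio scaling moved by 0.14 and 0.15.

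In cultured E5.5 embryos 2 members were higher in TGC and 13 lower, where 37.8% of all genes were called, 6.28% higher and 31.5% lower. The median member differed by -0.76 and the median gene by -0.51, and quantile and median-ratio scaling both moved the latter by 0.51. The splits were then 4 higher and 9 lower and 4 and 10. Prl3d1, a placental lactogen, alone took 10.1% to 11.5% of TPM in these TGC libraries, against 1.86% to 2.22% in TGC E4.75, and its part in the lower values was not tested. Wnt3, Wnt6 and Porcn were listed at 0 in all 4 TGC libraries. Wnt7b differed by -5.86 ± 0.53 (adjusted p = 8.0e-14) and by -5.14 under median-ratio scaling. Wls was at 0.895, 2.03, 2.61 and 1.60 TPM in TGC and 14.7, 22.1 and 14.4 in ExE, a difference of -2.71 ± 0.44 (adjusted p = 7.6e-07) and of -1.92 after that scaling. Lgr4 and Znrf3 differed by -2.48 ± 0.43 (adjusted p = 2.3e-06) and -2.16 ± 0.30 (adjusted p = 1.9e-08), or by -1.53 and -1.21 after scaling. No TGC library overlapped with ExE for Wnt7b, Wls, Lgr4 or Znrf3.

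Wnt11 and Tcf7l1 were the members higher in cultured TGC. Wnt11 was at 49.1, 49.7, 40.1 and 42.3 TPM, a difference of 2.08 ± 0.44 (adjusted p = 8.9e-05) that became 3.03 under median-ratio scaling. Tcf7l1 was at 351, 379, 409.9 and 383 TPM in TGC and 166, 173 and 146 in ExE, a difference of 1.23 ± 0.35 (adjusted p = 0.0025), or 2.24 after scaling, and was not called with a pseudocount of 0.1 TPM. The calls of Fzd3, Lrp6 and Ctnnb1 were lost under both scalings, that of Fzd7 under quantile normalization, and that of Fzd9 without the third ExE library (-0.98, adjusted p = 0.19). Of the wider lists 0 of 12 inhibitors were higher and 4 lower, and 0 of 12 non-canonical genes were higher and 6 lower, led by Gpc3 (means of 0.300 against 152 TPM) and Gpc4. Of 10 endoderm markers 9 were lower in these TGC libraries and 0 higher, with a sum of 3.89 to 11.9 TPM and Ttr at 0, and Gpc3 had a mean of 3.00 TPM in ExE in vivo. The part of the endoderm markers in these values was not tested.

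The change of the TGC to ExE difference between E4.75 and cultured E5.5 was itself tested, and 7 members were called, all more negative at E5.5, beside 19.8% of all genes, 3.73% more positive and 16.1% more negative. The median member was at -0.44 and the median gene at -0.37. Wnt7b changed by -5.14 ± 0.77 (adjusted p = 6.0e-07), Wnt6 by -5.06 ± 0.55 (adjusted p = 1.4e-10) and Fzd1 by -2.44 ± 0.33 (adjusted p = 5.6e-08), and these 3 kept their calls under every alternative. Wls changed by -2.24 ± 0.64 (adjusted p = 0.0071), which became -1.73 (adjusted p = 0.054) under median-ratio scaling. Wnt3, Znrf3 and Ctnnb1 were the other 3 calls, and each was lost under both scalings. That scaling and quantile normalization moved the median gene by 0.37 and 0.38, and the median-ratio split was 1 higher and 3 lower. Stage and culture cannot be told apart in this comparison.

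The effect of culture on ExE was also set against its effect on Epi at E5.5. Of the members 2 changed more upward in ExE, Wnt11 and Fzd8, and 1 more downward, Fzd2, beside 10% of all genes, 5.09% upward and 4.91% downward, with the median gene at 0. None of the 3 calls held under every alternative. The split was 1 and 1 under both scalings.

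**Figure D4:**
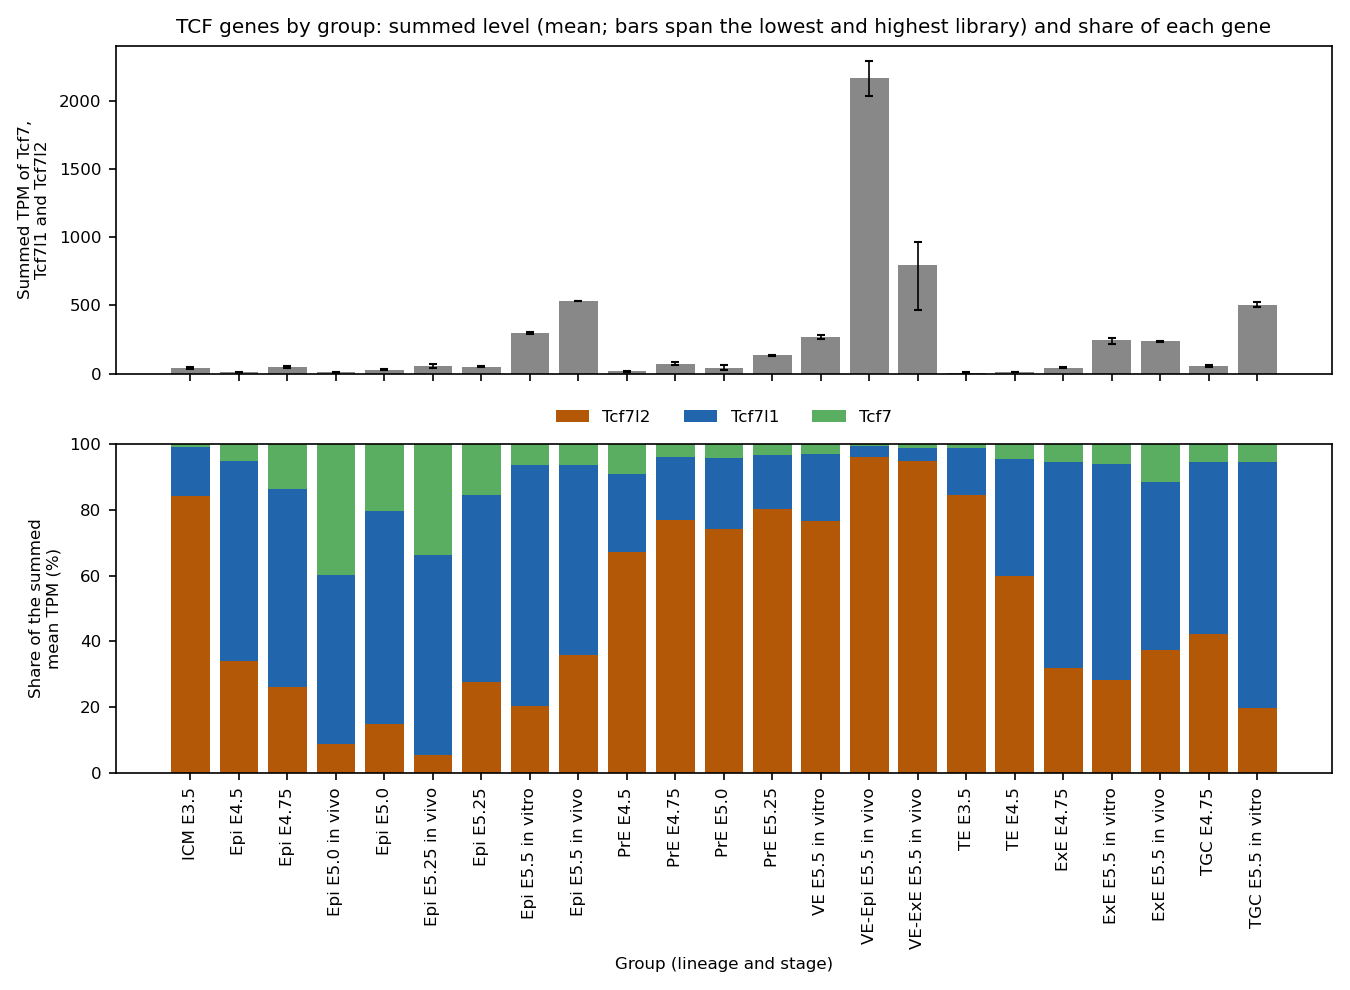
Summed TPM of Tcf7, Tcf7l1 and Tcf7l2 by group (bars, mean; error bars from the lowest to the highest library) and the share of each gene in the sum. Tcf7l2 has the largest share in ICM, TE and endoderm groups and Tcf7l1 has the largest share in Epi, ExE and TGC groups.

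The makeup of the TCF genes differed by lineage and by stage. The sum of the 3 genes ran from 8.06 TPM in TE E3.5, the lowest group, to 2162 in VE_Epi, with 297 in cultured Epi and 506 in cultured TGC. Tcf7l2 was 84.3% of the sum in ICM, 84.4% in TE E3.5, 59.9% in TE E4.5, 67.2% to 80.5% in PrE, 76.6% in cultured VE and 96.0% in VE_Epi. Tcf7l1 was 61.2% in Epi E4.5, 62.5% in ExE E4.75 and 52.5% in TGC E4.75. At E5.5 it was 73.3% in cultured Epi, 57.8% in Epi in vivo, 65.8% in cultured ExE and 75.2% in cultured TGC. Tcf7 was at most 39.7%, in the in vivo Epi E5.0 group. Beta-catenin itself varied less: every library of every group held at least 20.4 TPM of Ctnnb1, and the highest mean was 195 TPM in cultured VE (209, 178 and 199).

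**Figure D5:**
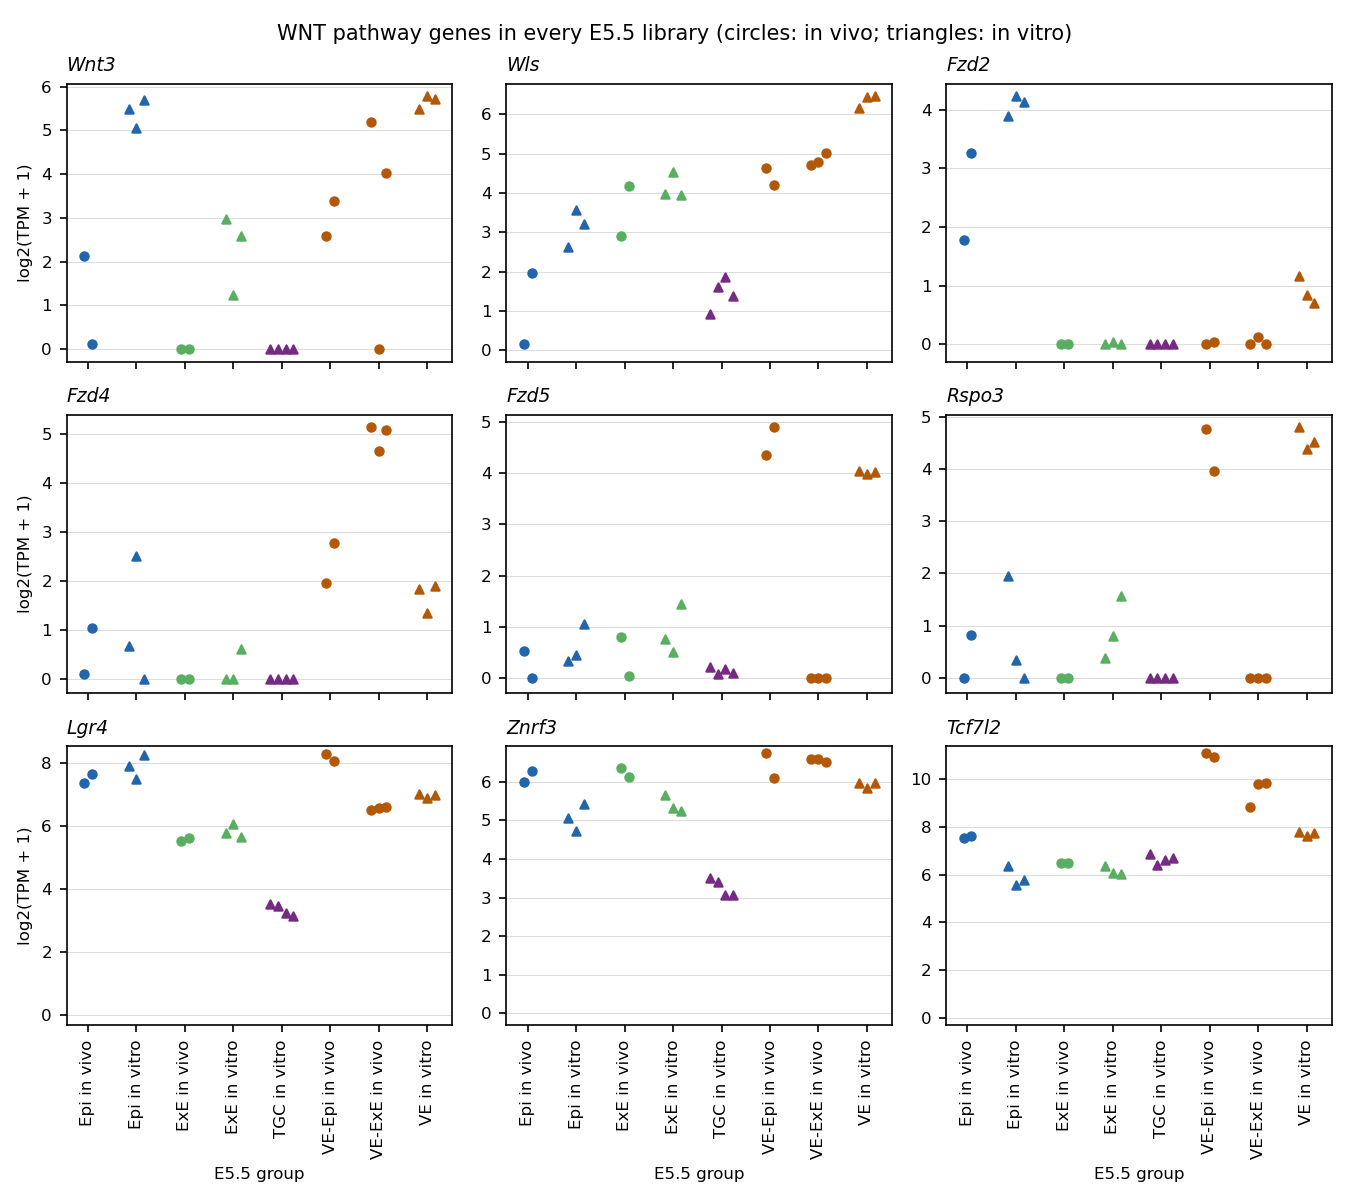
TPM of 9 members in every E5.5 library (circles in vivo, triangles in vitro; log2(TPM + 1) axis) of Epi, ExE, TGC and the endoderm groups. Fzd4 is at 24.4 to 34.4 TPM in VE_ExE, Fzd5 and Rspo3 are listed at 0 there, and Wnt3 is higher in cultured than in in vivo Epi.

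Cultured and in vivo epiblast at E5.5 differed in members that included ligands, receptors and, of the TCF genes, Tcf7l2 alone. Of the members 7 were higher in culture and 4 lower, with 21.8% of all genes called, 15.1% higher and 6.73% lower, and medians of 0.36 for members and 0.18 for all genes. The cultured libraries held 11170, 11058 and 11118 genes at 1 TPM or more and the in vivo libraries 9931 and 9465. Actb took 1.15% to 1.68% of TPM in culture and 5.43% and 6.26% in vivo. The part of these gaps in the calls was not tested. Quantile and median-ratio scaling moved the median gene by -0.23 and -0.16, and 5 were then higher and 4 lower under each. Wnt3 was at 44.1, 32.0 and 50.5 TPM in culture and 3.39 and 0.0735 in vivo, a difference of 4.29 ± 0.72 (adjusted p = 5.3e-06). Wnt7b was listed at 0 in both in vivo libraries and was called. Of 9 trophoblast markers 3 were higher in culture and 0 lower, with sums of 326 to 412 TPM in culture and 149.8 to 175 in vivo, where Cdx2, Elf5, Tfap2c, Tead4, Sox21 and Esx1 were at 0. Of 5 giant cell markers tested 2 were higher and 0 lower, and Prl3d1 had a mean of 139 TPM in culture and 0 in vivo. The part of these markers in the Wnt7b and Wnt6 levels was not tested. Tcf7l2 was lower in culture, at 80.7, 46.4 and 54.0 TPM against 184 and 198, by -1.68 ± 0.35 (adjusted p = 1.8e-04). The calls of Wnt3, Wnt7b and Tcf7l2 held under every alternative, and none of these 3 genes overlapped between the settings. Of the others, Wls (2.07) became 1.18 (adjusted p = 0.18) and Fzd2 (1.56) became 0.82 without the first in vivo library. Without the second, Fzd7 (-1.41) became -1.0 (adjusted p = 0.14), Fzd8 became -0.94, Znrf3 (-1.07) became -0.93 and Ctnnb1 (1.03) became 0.41. Znrf3 also became -0.90 without the second cultured library, Wnt6 was lost with array weights, and Fzd1 under both scalings. Of 11 listed response genes 6 were higher in culture and 0 lower, with a list median of 1.08. They included T, listed at 0 in vivo with a mean of 6.37 TPM in culture, and Sp8 (means of 23.9 against 6.90 TPM), whose call was lost without the first in vivo library (1.31, adjusted p = 0.078). Lef1 was lower, with means of 30.5 against 114 TPM.

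Between cultured and in vivo ExE the calls were in Wnt11, Wnt3 and Porcn. These 3 members were higher in culture and 0 lower by limma, with 10 at an unadjusted p under 0.05, beside 11.8% of all genes, 9.4% higher and 2.43% lower, and the split was 1 and 1 under each of the 2 scalings, which moved the median gene by -0.23 and -0.14. Cultured ExE libraries held 11160, 10933 and 11065 genes at 1 TPM or more and the in vivo libraries 9786 and 9863, a gap whose part was not tested. Wnt11 was listed at 0 in both in vivo libraries and held 12.1, 9.26 and 8.66 TPM in culture. Gata4, Gata6 and Sox7, endoderm transcription factors, were also listed at 0 in ExE in vivo, while 10 of 10 endoderm markers had a mean of at least 1 TPM in cultured ExE, and their part in the Wnt11 level was not tested. Wnt3 and Porcn were called with in vivo values of 0, and both calls were lost without either in vivo library (Wnt3 2.26, adjusted p = 0.11; Porcn 1.84, adjusted p = 0.087 to 0.089). The Wnt3 call was also lost without the first or the third cultured library (1.91 and 2.09). The Wnt7b difference of 0.93 ± 0.63 (adjusted p = 0.38) was not called, with a confidence interval of -0.34 to 2.19.

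In the fit of all libraries, the 2 in vivo endoderm groups differed in receptor levels. The VE_ExE libraries held 8423, 8511 and 8553 genes at 1 TPM or more, and the VE_Epi libraries 10231 and 10241. The part of this gap in the lower values and values of 0 was not tested. Between VE_ExE and VE_Epi 1 member was higher and 10 lower, with 16.3% of all genes called, 3.58% higher and 12.7% lower, and medians of -0.18 for members and -0.06 for all genes, the latter moved by 0.17 under quantile normalization. Fzd4, a receptor that also binds norrin, was at 34.4, 24.4 and 32.9 TPM in VE_ExE and 2.89 and 5.84 in VE_Epi, a difference of 2.60 ± 0.50 (adjusted p = 7.4e-05). Fzd5 was listed at 0 in VE_ExE and held 19.5 and 28.7 TPM in VE_Epi. Rspo3 was listed at 0 in VE_ExE and held 26.2 and 14.6. None of the 3 overlapped between the groups. The Fzd4 call was lost with a pseudocount of 0.1 TPM (2.85, adjusted p = 0.087) and with array weights (2.57, adjusted p = 0.12).

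Porcn was at 0, 4.67 and 0 TPM in VE_ExE and 24.0 and 22.8 in VE_Epi, a difference of -3.77 ± 0.56 (adjusted p = 6.4e-07). Tcf7l2 was at 448, 891 and 922 TPM and 2196 and 1955, a difference of -1.53 ± 0.35 (adjusted p = 8.4e-04). That call was lost with array weights (-1.42, adjusted p = 0.28). Wls, at 25.0, 26.5 and 31.3 TPM in VE_ExE and 24.1 and 17.5 in VE_Epi, was not called. Wnt11 was uneven in VE_ExE, at 0, 12.9 and 0.989 TPM, as was Wnt3, at 35.6, 0 and 15.2. The Wnt11 call became -0.87 (adjusted p = 0.24) without the first VE_ExE library, -1.37 (adjusted p = 0.082) without the third, and -1.28 (adjusted p = 0.22) without the second VE_Epi library. The calls of Wnt5a, Lgr4 and Tcf7l1 became -0.73, -1.49 and -1.22, at adjusted p-values of 0.087 to 0.12, without the first VE_Epi library. Lgr4 and Tcf7l1 were also lost without the second VE_Epi library (-1.71 and -1.39, adjusted p = 0.064 and 0.063), and Tcf7l1 without the first VE_ExE library (-0.88, adjusted p = 0.14). In the fit of these 5 libraries alone 0 members were called by limma, with 5 at an unadjusted p under 0.05, and Fzd5 and Rspo3, at 1 TPM or more in only 2 of them, were not tested there. Of 12 inhibitors 0 were higher and 3 lower in VE_ExE: Cer1, listed at 0 against a mean of 204 TPM, Sfrp1 (means of 5.71 against 641 TPM) and Sfrp5 (0.549 against 90.2).

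From PrE E5.25 to cultured VE, 10 members rose and 2 fell, beside 16.7% of all genes, 13.1% higher and 3.57% lower, with medians of 0.58 for members and 0.15 for all genes. Quantile and median-ratio scaling moved the median gene by -0.15 each, and the splits were then 3 and 2 and 2 and 2. Wnt3 rose from 1.69, 1.16 and 0.509 to 43.9, 54.0 and 51.6 TPM, by 4.62 ± 0.64 (adjusted p = 1.5e-07). Znrf3 rose from 9.97, 10.7 and 9.49 to 61.8, 55.9 and 61.6 TPM, by 2.46 ± 0.32 (adjusted p = 2.8e-08). Wnt6 fell from 3.43, 2.97 and 3.85 to 0, 0.213 and 0 TPM, by a log2 difference of -2.04 ± 0.40 (adjusted p = 8.9e-05). These 3 genes did not overlap between groups, and their calls held throughout. Of 9 trophoblast markers 4 were lower in cultured VE and 0 higher, with means of 2.52 against 20.0 TPM for Elf5 and 0.795 against 5.30 for Tfap2c, sums of 2879.7 to 3239.8 TPM against 3090.0 to 3386, and Cdx2 at 0 in VE. The part of these markers in the Wnt6 and Wnt7b levels was not tested. Stage and culture cannot be told apart in this comparison. Rspo3 rose by 1.13 ± 0.29 (adjusted p = 0.0026) and Tcf7l1 by 1.29 ± 0.37 (adjusted p = 0.0075), with calls that held for every library left out but not under every setting. The Wnt7b difference of -2.0 became -1.67 without the first or the second VE library (adjusted p = 0.055 and 0.052). Of the other 6 calls, Fzd5, Fzd6, Lrp6, Lgr4, Axin1 and Axin2, each was lost when at least 2 of the 6 libraries were left out in turn, at adjusted p-values of 0.056 to 0.11. Of 11 response genes 4 rose and 0 fell, led by Sp5 (means of 34.9 against 2.91 TPM), and Cer1 fell from a mean of 61.6 to 1.60 TPM.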

How the data were processed

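RNA of wild-type mouse embryo cells was measured by Smart-seq2 in 67 libraries of 23 groups. The authors' deposited table gives 1 TPM value per gene and library for 25006 genes, and its columns sum to 985702 to 996469. The submitters' processing notes name HISAT2 2.2.1, StringTie 2.2.1, Cufflinks and the mm10 build. The role of each tool, the annotation, strand use and the Cufflinks version are not given in the sources used here. TPM keeps no read depth, so depth is unknown and no counting error can be given. No value column was left unmapped and no 2 libraries held identical values.

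Log2(TPM + 1) values of the 15567 genes that reached 1 TPM in 3 or more libraries were fitted with limma 3.58.1 (empirical Bayes with an intensity trend, R 4.3.3), with a mean for each group over all 67 libraries and Benjamini-Hochberg adjustment over all genes tested. A call needed both an adjusted p below 0.05 and a log2 difference of 1 or more in size. The sources do not say which libraries came from separate litters, so p-values measure the spread between libraries, which may be technical. Tables and plots were made with Python 3.11.15, pandas 2.3.3, numpy 2.4.6 and matplotlib 3.10.9, and the fit was tested on simulated data.

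The members and the wider lists (inhibitors, cytoplasmic components, nuclear partners, response genes, non-canonical genes) were chosen with earlier results of these data known. Members with a group mean of at least 5 TPM were named by level. In a comparison the text names Wnt7b and up to 8 called members in each direction, and up to 3 called genes of a wider list in each direction. Calls named because they were lost under an alternative were chosen after their values were seen. The alternatives were quantile normalization, scaling by median ratios, a pseudocount lowered to 0.1 TPM, an unfiltered table, a replicate block, array weights, a fit of the compared groups alone and leaving out each library in turn. Promoter windows come from a RefSeq table of GRCm38.p6.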

Additional observations from a re-analysis of the deposited data

Results flagged for a closer look

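The effect of culture at E5.5 differed between ExE and Epi by the interaction test for 3 of 35 members. Over all genes tested 10% were called, 5.09% upward and 4.91% downward. For Wnt11 the difference of the 2 effects was 2.25 ± 0.75 (adjusted p = 0.04). ExE in vivo and Epi in vivo were both listed at 0 for Wnt11, so this value depends on the pseudocount, and it became 1.71 (adjusted p = 0.15) without the first cultured Epi library and 2.12 (adjusted p = 0.078) without the first cultured ExE library. It was also not called without the second cultured ExE library or without any 1 of the 4 in vivo libraries. The 10 endoderm markers that stand beside Wnt11 in cultured ExE were given with its levels, and their part was not tested. For Fzd2 the difference was -1.55 ± 0.37 (adjusted p = 0.0032), with 0 TPM in ExE in vivo, and it became -0.81 (adjusted p = 0.15) without the first in vivo Epi library. For Fzd8 it was 1.24 ± 0.39 (adjusted p = 0.029), from means that stayed below 5 TPM in every group, and it became 1.07 (adjusted p = 0.13) without the second in vivo Epi library and 1.20 (adjusted p = 0.055) without the second cultured ExE library. It was also not called without either in vivo ExE library.

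The difference between giant cells and ExE changed from E4.75 to cultured E5.5 for 7 of 35 members, all more negative at E5.5. Over all genes tested 19.8% were called, 3.73% more positive and 16.1% more negative. The values were -5.14 ± 0.77 (adjusted p = 6.0e-07) for Wnt7b, -5.06 ± 0.55 (adjusted p = 1.4e-10) for Wnt6, -2.44 ± 0.33 (adjusted p = 5.6e-08) for Fzd1, -2.24 ± 0.64 (adjusted p = 0.0071) for Wls, -2.30 ± 0.88 (adjusted p = 0.0496) for Wnt3, -1.16 ± 0.43 (adjusted p = 0.045) for Znrf3 and -1.08 ± 0.29 (adjusted p = 0.0042) for Ctnnb1. Wnt3 and Wnt6 were listed at 0 in all E5.5 giant cell libraries, so their values are no bounds. The Wnt3 call was lost without any 1 of 12 libraries (-2.32 to -1.95, adjusted p = 0.065 to 0.14), which leaves the second cultured ExE library as the exception. The Znrf3 call was lost without any 1 of 10 libraries (-1.24 to -1.04, adjusted p = 0.051 to 0.11), and Ctnnb1 became -0.98 without the first cultured ExE library. Under quantile and median-ratio scaling Znrf3 was at -0.48 and -0.45 and Ctnnb1 at -0.56 and -0.37. Outlying libraries were tested for only in cultured TGC, the 1 group of 4 libraries, and none of the 11 values tested there stood apart.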

How the results depend on the processing

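Of the 176 member calls, 99 held under every setting and with every library left out, and 123 held with every library left out. None changed sign. A pseudocount of 0.1 TPM ended 32 of them, the unfiltered fit 6, quantile normalization 38, median-ratio scaling 30, array weights 29 and the fits of the compared groups alone 25 of the 157 tested there. Of 1086 results with a library left out, 150 lost their call. Of 271 calls followed for genes of the wider lists, 171 held throughout and 207 with every library left out. The cause of these changes was not tested.

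The number of members called moved by over 1.5 times as follows. With array weights it was 5 (of 9) for PrE against Epi E4.5, 7 (of 4) for ExE against Epi E4.75, 5 (of 10) for ExE against Epi in vivo, 3 (of 1) for TGC against ExE E4.75, 6 (of 11) for cultured against in vivo Epi, 3 (of 11) for VE_ExE against VE_Epi, 0 (of 3, with 4 at an unadjusted p under 0.05) for the culture interaction and 12 (of 7) for the giant cell interaction. In fits of the compared groups alone the same 8 comparisons gave 1, 7, 3, 3, 4, 0, 1 and 11. Quantile normalization gave 5 for PrE against Epi E4.5, 7 for VE_ExE against VE_Epi, 5 (of 12) for cultured VE against PrE E5.25 and 3 for the giant cell interaction. Median-ratio scaling gave 4 for each of the last 2. The lower pseudocount gave 0 for TGC against ExE E4.75 (limma, 2 at an unadjusted p under 0.05), 4 for cultured VE against PrE E5.25 and 1 for the culture interaction.

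With a library left out in turn, the count ran from 6 to 6 for TE against ICM, 4 to 5 for TE E4.5 against E3.5, 5 to 10 for PrE against Epi E4.5, 7 to 9 at E4.75, 11 to 15 at E5.0, 8 to 9 at E5.25 and 16 to 19 for cultured VE against Epi. It ran from 13 to 17 for Epi E4.75 against E4.5, 9 to 12 for cultured Epi against E4.75, 2 to 4 for ExE against Epi E4.75, 7 to 11 in culture and 6 to 9 in vivo. It ran from 1 to 1 for TGC against ExE E4.75, 14 to 17 for cultured TGC, 1 to 5 for cultured against in vivo ExE, 7 to 14 for Epi, 8 to 15 for the VE regions, 7 to 10 for VE against PrE E5.25, 1 to 4 for the culture interaction and 4 to 7 for the giant cell interaction. Groups of 2 left with 1 library were assumed to vary like the others.

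Across genes, same-numbered libraries showed little shared deviation: the correlations of their deviations ran from -0.048 to 0.169, with 1 over 0.1. The numbers were not taken as pairs. Rn45s did follow the numbers in places. At E4.75 it was lowest in the first library of Epi, PrE, ExE and TGC, and at E5.0 in that of Epi and PrE. It took 0.375%, 1.18% and 1.20% of TPM in Epi E5.0 and 0.473%, 1.24% and 1.15% in PrE E5.0. Whether same-numbered libraries share an origin is not known. A fit with the replicate block kept 175 of the 176 calls and left 6 members in the giant cell interaction, where Wnt3 was lost (adjusted p = 0.06), and all other counts as they were.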

Other observations

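Levels of 3 members are given here for the in vivo Epi libraries beside the Epi libraries without that label at the same stage, groups that were not compared by a test. Lgr4 was at 1.96, 0.905 and 0.327 TPM in Epi E5.0 in vivo and 40.4, 5.0 and 6.79 in Epi E5.0, and the first of the latter libraries stood above the other 2. Rn45s took 8.32% to 11.2% of TPM in the former libraries and 0.375% to 1.2% in the latter, and Actb 0.0507% to 0.0553% and 0.473% to 0.854%. Their part in the Lgr4 levels was not tested. At E5.25 it was at 21.9, 15.8 and 15.6 TPM in vivo and 61.8, 61.8 and 64.2 without that label, and the groups did not overlap at either stage. Porcn was at 0, 4.76 and 0 TPM in vivo and 0, 0 and 1.78 at E5.25. Tcf7 was at 34.1, 7.09 and 12.8 and 7.38, 9.05 and 6.53 TPM at that stage.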
